A study of Mus musculus with 4 samples.

Results

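The lipid droplet proteins and the enzymes of triglyceride lipolysis were examined in mouse liver as a set of 10 genes, Pnpla2, G0s2, Abhd5, Plin2, Plin3, Plin5, Cidea, Cideb, Cidec and Mgll. The set consists of every probe set whose annotated symbol is one of these, which gave 15 of the 22690 probe sets of the array. Of the 10 genes, 9 were measured, meaning that they exceeded a floor of 16 intensity units on at least 1 array, and Cidea did not. Liver RNA came from 4 groups of male mice of 12 to 20 weeks: PPARα-null mice (129S4/SvJae) fasted for 24 hours, fed PPARα-null mice, wild-type mice (129S1/SvImJ, labelled 129Sv) fasted for 24 hours, and fed wild-type mice. The null mice lack the receptor in every tissue. Livers of both feeding states were taken at about the same time of day, near the change from dark to light. RNA of 5 mice was pooled per group and hybridized to 1 Affymetrix MOE430A array. With 1 array per group there was no replicate error, no test and no p-value, and a difference between genotypes cannot be told apart from a difference between the substrains.

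A lipid droplet is a core of triglyceride and sterol ester under a phospholipid monolayer that carries proteins. Perilipins coat the surface and gate the access of lipases, CIDE proteins act where droplets touch and exchange lipid, and triglyceride is cut in steps by adipose triglyceride lipase, a diglyceride lipase and monoglyceride lipase. In fasting, fatty acids from adipose tissue reach the liver and are esterified into droplets or oxidised, and PPARα is the fatty acid-activated receptor that governs much of the oxidation.

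The question was how these genes differed between null and wild-type liver in each feeding state, and between fasted and fed liver in each genotype. Plin5 was the gene with the largest deficit in the null pools, and G0s2 and Mgll were also lower in the fasted null pool, whereas Plin3 was higher there. Pnpla2, Plin2 and Cidec were higher in the fasted than in the fed pool of both genotypes. The threshold for counting a gene was 1.5-fold. In fasted liver the null pool was lower for 3 of the 9 genes measured (Plin5, G0s2, Mgll), against a background of 13.6% of all 6947 measured genes, and higher for 1 (Plin3, background 8.58%). In fed liver 1 was lower (Plin5, background 2.12%) and 0 were higher (background 2.38%). Fasting was accompanied by higher values of 5 genes in null liver (Pnpla2, Plin2, Plin3, Plin5, Cidec, background 12.4%) and of 5 genes in wild-type liver (Pnpla2, Plin2, Plin5, Cidec, Mgll, background 8.2%). It was accompanied by lower values of 1 gene in null liver (G0s2, background 18%) and of 0 genes in wild-type liver (background 8.29%). Cidec was measured only through the fasted pools, so its place among the higher genes follows from the floor.

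**Figure D1:**
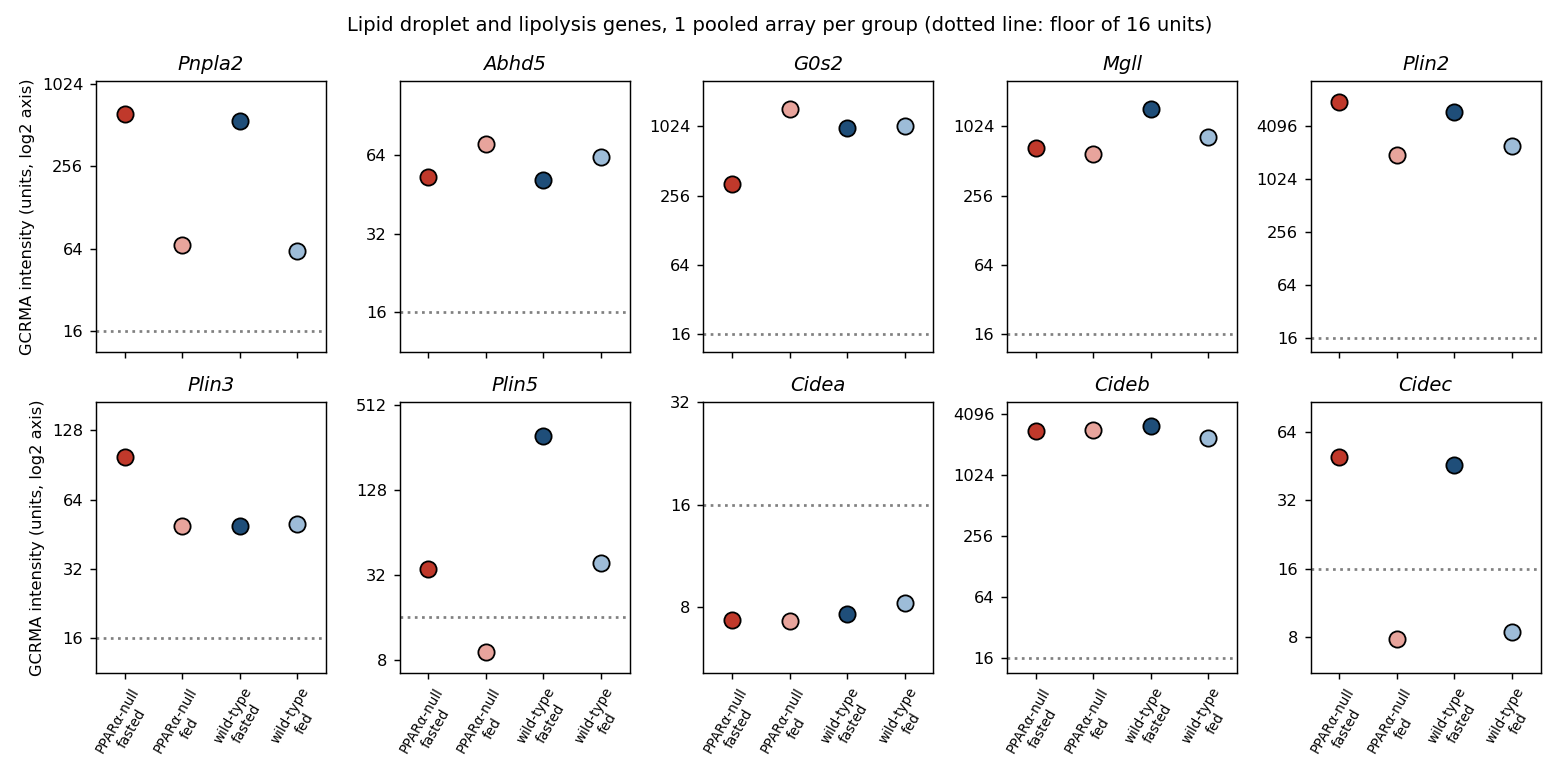
GCRMA intensity (units on a log2 axis) of the 10 genes, brightest probe set of each, with 1 point per pooled array and the floor of 16 units as a dotted line. Pnpla2, Plin2 and Cidec stand high in both fasted pools, Plin5 stands at 311 units in fasted wild-type liver and at 35.4 units or less in both null pools, and Cidea lies under the floor throughout.

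The arrays had medians between 14.4 and 14.6 units. Ppara read 16.3 and 104 units in the fasted and fed null pools and 755 and 583 units in the fasted and fed wild-type pools, in the direction of the labels. Probe sets of the same gene that were bright on all arrays differed from each other with an SD of 0.30 on the log2 scale for the null against wild-type difference in fasted liver, 0.19 in fed liver, 0.37 for fasting in null and 0.24 for fasting in wild-type liver. This SD covers differences between probe sets read on the same arrays. It holds neither effects shared by the probe sets of an array nor the spread between mice. Probe sets below 64 units on any array were not part of it. The balance of all genes depended on the scaling of the fasted null array. In fasted liver 948 genes were lower and 596 higher in the null pool as deposited, and 722 and 887 after each array was centred on its bright probe sets, which shifted the null minus wild-type difference by 0.15. Fasting in null liver gave 1248 lower and 864 higher genes as deposited and 1019 and 1124 after centring, and the difference of responses gave 1037 and 635 as deposited and 767 and 979 after centring. Among the 9 genes the centring changed the sign only of values close to 0, those of Cideb and Abhd5. All 7 hepatocyte markers with a probe set were measured on every array. Other lists were less complete, with 3 of 7 adipocyte, 1 of 3 brown adipocyte, 8 of 9 Kupffer cell and macrophage, 5 of 7 stellate cell and fibroblast, 4 of 5 endothelial, 4 of 5 exocrine pancreas and 1 of 3 lymphocyte markers measured. The exocrine pancreas markers moved with the feeding state, at a summed 118 and 901 units in fasted and fed null liver and 112 and 634 units in fasted and fed wild-type liver, with Cpa1 at the floor on all arrays. Past the threshold, 4 of these 4 markers were lower in fasted than in fed null liver (background 18%). In wild-type liver this held for 1 of 4, Cela1 (background 8.29%). In fed liver the null pool was higher for 3 of the 4 (Cela2a, Cela3b and Prss2, background 2.38%), and in fasted liver for 0 (background 8.58%). The part of this tissue in the fasting differences and in the genotype difference of fed liver was not tested. In these whole-liver pools, fewer cells of a type and less RNA per cell cannot be told apart.

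Pnpla2 encodes adipose triglyceride lipase, which cuts the first fatty acid from triglyceride. Its brighter probe set read 620 units in fasted and 67.7 units in fed null liver, and 548 units in fasted and 61.9 units in fed wild-type liver. Both fasted pools were far above both fed pools, and the genotypes lay close together in each state. Fasted liver was 9.16-fold above fed liver in null mice and 8.85-fold above it in wild-type mice, and these differences ranked 29 and 16 from the top of the 6947 genes. Null minus wild-type was 0.18 on the log2 scale in fasted and 0.13 in fed liver, both below the SD between probe sets of a gene. The difference between the 2 fasting responses, null minus wild-type, was 0.05. The other probe set of Pnpla2 read between 5.23 and 5.76 units and gave no measurement, so all Pnpla2 values rest on 1 probe set, and its suffix means that several transcripts of the gene may be matched.

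Abhd5, also called CGI-58, encodes the coactivator protein of Pnpla2. Its brighter probe set read 53.0 and 70.8 units in fasted and fed null liver and 51.4 and 62.8 units in fasted and fed wild-type liver. The fasted pools were slightly below the fed ones in both genotypes, by 0.42 and 0.29 on the log2 scale in null and wild-type liver, which did not reach 1.5-fold. The genotypes differed by 0.04 in fasted and 0.17 in fed liver. A dimmer probe set stayed between 29.4 and 32.6 units on the 4 arrays. Abhd5 thus had no difference past 1.5-fold in any of the comparisons, beside the large fasting difference of the lipase it activates.

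G0s2 encodes a small protein that binds Pnpla2 and inhibits it. Its only probe set read 322 units in fasted and 1447 units in fed null liver, against 978 units in fasted and 1024 units in fed wild-type liver. The fasted null pool was the low one and the other 3 pools lay within a factor of 1.5 of each other. Fasted null liver was 4.50-fold below fed null liver, rank 120 from the bottom of all genes, and 3.04-fold below fasted wild-type liver, rank 149. The wild-type fasting difference was -0.07 on the log2 scale. In fed liver the null pool was 1.41-fold above the wild-type pool, under the 1.5-fold threshold, so the null minus wild-type difference had opposite signs in the 2 feeding states. The difference between the 2 fasting responses was -2.10, rank 67 from the bottom. In null liver the lipase gene and its inhibitor gene therefore moved in opposite directions with fasting (3.20 for Pnpla2 and -2.17 for G0s2 on the log2 scale), while in wild-type liver Pnpla2 was higher by 3.15 without a G0s2 difference past 1.5-fold.

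Mgll encodes monoglyceride lipase, which releases the last fatty acid and glycerol. In its brightest probe set it read 659 and 588 units in fasted and fed null liver and 1455 and 831 units in fasted and fed wild-type liver. The fasted wild-type pool was the high one. It exceeded fed wild-type liver 1.75-fold, whereas fasted and fed null liver differed by only 1.12-fold. Fasted null liver was 2.21-fold below fasted wild-type liver, and in fed liver the null pool was 1.41-fold lower, under the threshold.

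Mgll had 4 probe sets, and 3 of them, all with a suffix, were well above the floor. In the second the fasted and fed null pools read 464 and 332 units and the fasted and fed wild-type pools 759 and 385 units. In the next they read 219 and 206 units in null and 725 and 309 units in wild-type liver. In all 3 the fasted wild-type pool was highest and the fed null pool lowest, while the order of the other two pools differed, with fasted null above fed wild-type liver in the second and below it in the brightest and the next. The log2 difference of fasted null from fasted wild-type liver was -1.14, -0.71 and -1.73 in the 3 probe sets, so each passed 1.5-fold while the size varied. The difference between the fasting responses was -0.64, -0.49 and -1.14, past 1.5-fold in the brightest and the dimmest of these. The fourth probe set stayed between 9.21 and 13.2 units, under the floor.

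**Figure D2:**
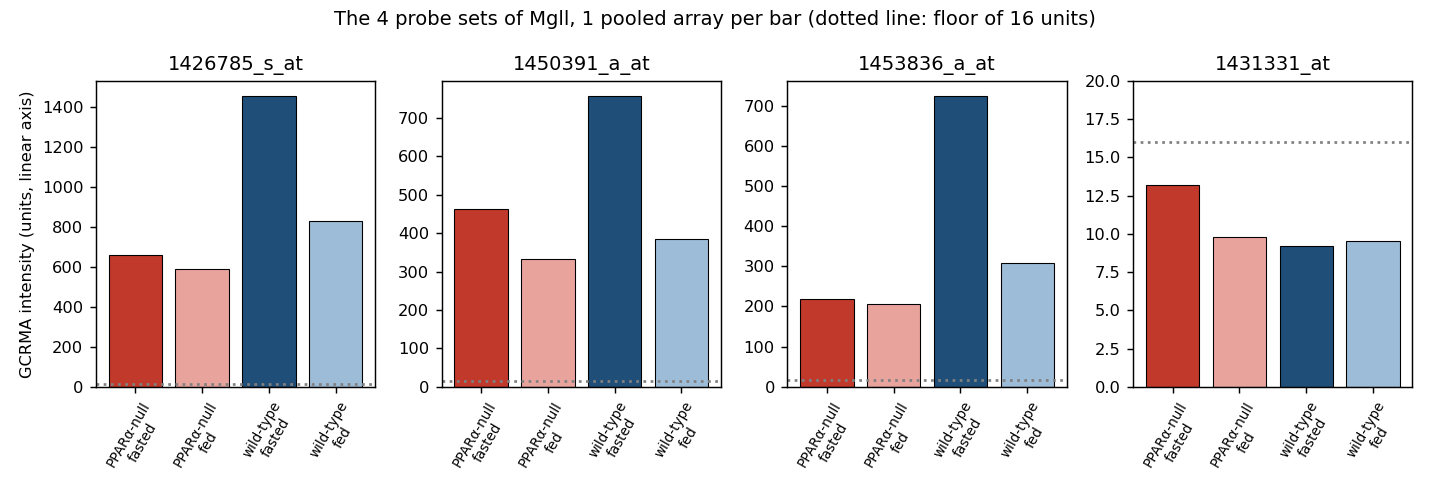
GCRMA intensity (units on a linear axis starting at 0) of the 4 Mgll probe sets, with 1 bar per pooled array and the floor of 16 units as a dotted line. In the 3 probe sets above the floor the fasted wild-type bar is the tallest (1455, 759 and 725 units) and the fed null bar the shortest (588, 332 and 206 units).

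Perilipins are the coat proteins of the droplet. Plin5, typical of oxidative tissues and found where droplets contact mitochondria, showed the largest genotype difference of the set. It read 35.4 units in fasted null liver and 9.15 units, below the floor, in fed null liver, and in wild-type liver 311 units fasted and 39.1 units fed. The fasted null pool was about at the level of the fed wild-type pool. Fasted null liver was 8.78-fold below fasted wild-type liver, rank 24 from the bottom of the 6947 genes. In fed liver the null pool was at least 2.44-fold lower, a call that was lost with a floor at 64 units, under which both fed pools lay, as was the null fasting call. Fasting was accompanied by a higher Plin5 value in both genotypes, by at least 2.21-fold in null liver and by 7.95-fold in wild-type liver. The difference between the fasting responses, null minus wild-type, was no lower than -1.85 on the log2 scale because of the floor, and -1.04 from the values as deposited, so its size and its place against the threshold are not settled. Plin5 rests on 1 probe set.

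Plin2, also known as adipophilin or Adrp, is the main perilipin of hepatocytes and is stabilised by the presence of lipid. Fasted and fed null liver read 7553 and 1920 units, and fasted and fed wild-type liver 5822 and 2405 units. Both fasted pools were above both fed pools. The fasting difference was 3.93-fold in null and 2.42-fold in wild-type liver, and the difference between these responses was 0.70, past 1.5-fold. It came from both ends, since the null pool was 1.30-fold above wild-type in fasted liver and 1.25-fold below it in fed liver, and neither genotype difference reached 1.5-fold alone.

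Plin3, also called Tip47, is a soluble perilipin that coats nascent droplets in many cell types. It read 97.5 units in fasted null liver, 49.2 units in fed null liver, 49.2 units in fasted wild-type liver and 50.3 units in fed wild-type liver. Only the fasted null pool stood apart, at 1.98-fold of fed null liver and likewise 1.98-fold of fasted wild-type liver. The fasting differences were 0.99 in null and -0.03 in wild-type liver on the log2 scale. Macrophage markers were read on the same arrays. Of 8 measured markers, the null pool was higher past the threshold for 6 (background 8.58%) and lower for 0 (background 13.6%) in fasted liver. Cd68 was at the floor on all arrays. With fasting in null liver 3 of the 8 were higher (background 12.4%) and 1, Lyz2, was lower (background 18%). With fasting in wild-type liver 4 were lower (background 8.29%) and 0 higher (background 8.2%), whereas Plin3 was level there. Their summed intensity was 774 units in fasted and 661 units in fed null liver, and 360 units in fasted and 599 units in fed wild-type liver. Of 5 measured stellate cell and fibroblast markers, the null pool was higher for 4 in fasted liver (background 8.58%), with Col1a1 and Des at the floor. In fed liver the null pool was also higher for 3 of the 5 (Col3a1, Pdgfrb and Vim, background 2.38%), where Plin3 was level (-0.03). With fasting in null liver Col3a1 and Pdgfrb were lower (background 18%) and only Dcn was higher (background 12.4%) past the threshold. The summed level of this list was 2694 and 1967 units in fasted and fed null liver and 1481 and 1472 units in fasted and fed wild-type liver, most of it from Dcn, at 1876 and 1218 units in null and 1175 and 1061 units in wild-type liver. The part of these cell types in the Plin3 difference was not tested.

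**Figure D3:**
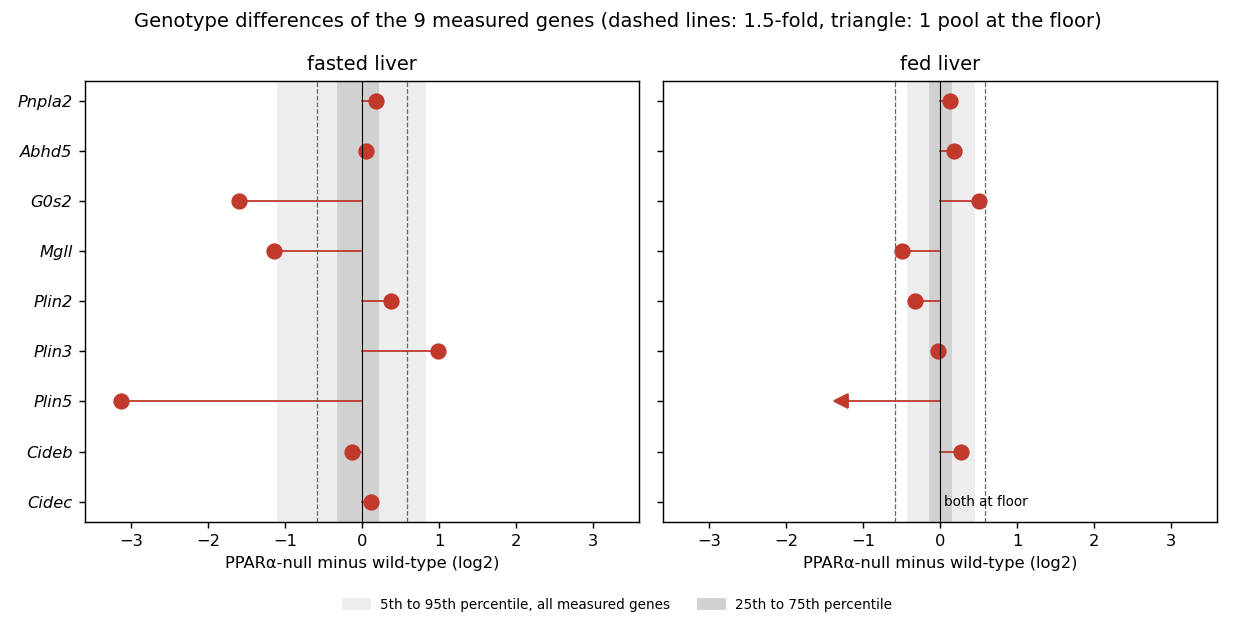
Null minus wild-type log2 difference of the 9 measured genes in fasted (left) and fed (right) liver, with grey bands for the percentiles of all measured genes and dashed lines at 1.5-fold. In fasted liver Plin5 (-3.13), G0s2 (-1.60), Mgll (-1.14) and Plin3 (0.99) lie outside the dashed lines. In fed liver only Plin5 does, as a bound at -1.29.

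The CIDE proteins gave 3 different pictures. Cidec, also known as Fsp27, enlarges droplets by lipid transfer and is abundant in white fat. It read 49.8 units in fasted null liver and 7.89 units in fed null liver, and 46.0 units in fasted and 8.47 units in fed wild-type liver. Both fed pools were under the floor and both fasted pools above it. The fasted pools were at least 3.11-fold above the fed pool in null and at least 2.88-fold above it in wild-type liver, and fasted null differed from fasted wild-type liver by 0.12. These are low intensities, since even the fasted pools stayed below 64 units. Pnpla2, Plin2 and Cidec are abundant in fat, so adipocyte markers were read on the same arrays. Adipoq, Lep, Retn and Lipe were at the floor on all 4 arrays. The 3 measured markers, Plin4, Fabp4 and Pparg, summed to 125 and 110 units in fasted and fed null liver and to 74.2 and 75.9 units in fasted and fed wild-type liver. With fasting 0 of the 3 were higher past 1.5-fold (background 12.4% in null and 8.2% in wild-type liver). Likewise 0 were lower (background 18% in null and 8.29% in wild-type liver). With so few genes, counts of 0 lie near these shares. Plin4 exceeded the floor only in fasted wild-type liver, at 16.6 units, so it could not pass. The null pool was higher past the threshold for Fabp4 and Pparg in fasted liver (background 8.58%) and for Pparg in fed liver (background 2.38%). The part of fat tissue in the fasting differences was not tested.

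Cideb, the CIDE member of hepatocytes that takes part in the lipidation of very low-density lipoprotein, was bright and nearly level. It read 2830 and 2858 units in fasted and fed null liver and 3114 and 2364 units in fasted and fed wild-type liver. The lowest and highest of these pools differed by 0.40 on the log2 scale. No comparison reached 1.5-fold. Cideb rests on 1 probe set, which carries a suffix, and whether it matches other transcripts was not examined. Cidea, best known from brown fat and from steatotic liver, read 7.36 and 7.28 units in fasted and fed null liver and 7.64 and 8.23 units in fasted and fed wild-type liver, under the floor throughout, so no difference is given for it. Of the other brown adipocyte markers, Ucp1, a defining one, was at the floor on the 4 arrays as well. Elovl3, a fatty acid elongase gene, read 207 and 1246 units in fasted and fed null liver and 238 and 1100 units in fasted and fed wild-type liver, so it was bright and lower in both fasted pools.

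The 2 fasting comparisons share no array and can be set against each other. Pnpla2 and Cidec lay near the line of equal response. Plin2 lay above it, Plin3 was higher in null liver alone, G0s2 was lower in null liver alone, and Mgll had the larger fasting increase in wild-type liver. Plin5 could not be placed, since its null response is known only as a lower bound. Taking the difference of responses itself on floored values, 3 of the 9 genes counted as lower past the threshold (G0s2, Mgll and Plin5, background 14.9%), of which Plin5 is a bound that does not fix its side, and 2 as higher (Plin2, Plin3, background 9.14%). The Mgll difference of responses fell under 1.5-fold when probe sets were averaged (-0.45) or when arrays were centred on bright probe sets (-0.49). The median of the 9 genes was -0.13, and 0.03 after centring, against -0.03 over all measured genes. The medians of the set were 0.99 and 0.81 for fasting in null and wild-type liver, and 0.04 and 0.00 for null against wild-type in fasted and fed liver, beside medians between -0.01 and 0.00 over all genes. The fasting medians depended on the low genes and on the probe sets: that of null liver was 0.083 with a floor at 64 units and 0.58 with no floor or with a filter at 64 units, and that of wild-type liver was 0.40 without suffixed probe sets.

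**Figure D4:**
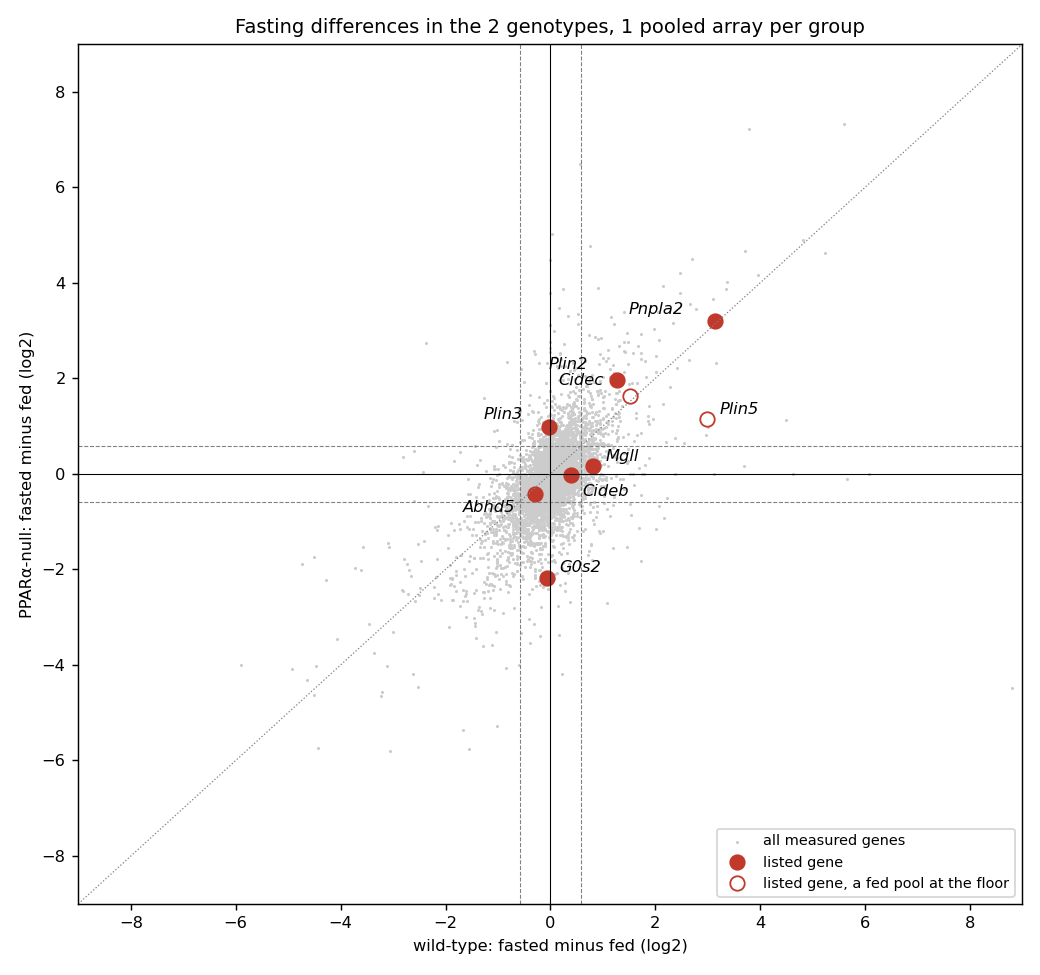
Fasted minus fed log2 difference in PPARα-null liver (vertical axis) against that in wild-type liver (horizontal axis) for all 6947 measured genes (grey) and the 9 measured genes of the set (red, open where a fed pool was at the floor). The dotted line marks equal response and the dashed lines 1.5-fold. Pnpla2 sits at 3.20 and 3.15, G0s2 at -2.17 and -0.07, and Plin3 at 0.99 and -0.03 in null and wild-type liver.

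PPARα binds DNA with its partner RXR at a direct repeat of AGGTCA with a single base between the copies, AGGTCANAGGTCA. The 250 bases before each annotated start site were searched for it on both strands in the RefSeq promoter table of GRCm38.p6, which is the C57BL/6J and not the 129 genome. This gave 12 windows for 9 of the genes, with Cidea not used. The full repeat was found in 0.0335% of all 32851 windows and in none of the 12. Allowing 2 mismatches, 3.24% of all windows held it, and of the set only that of Plin2. A single AGGTCA was present in 1 window each of 3 genes (Plin2, Plin5 and Abhd5) among the 12 windows, and in 14.0% of all windows. Plin5, Mgll and Cidec had more than 1 window each, and the closest stretch of these is used. The closest stretch is shown for the 7 genes with a difference past 1.5-fold in any comparison, so that those with and without a genotype difference can be compared. It is written in the direction of the repeat, with capitals for the bases that match it.
Plin2: AGGTCAggGGTCc
Plin5: taGTCtgAGGTCA
Plin3: AGGaCAgAGGgCc
G0s2: gGGTCtcAGGgCg
Mgll: AGGTCggcGGgCg
Cidec: AGGcaAgAGGgCA
Pnpla2: cGcgCccAGGTCc
These had 2, 3, 3, 4, 4, 3 and 5 mismatches at the 12 fixed positions, in the order shown. Up to 3 mismatches occurred in 21.3% and up to 4 in 74.5% of all windows. Only the Plin2 match was of a kind that few windows held (3.24%). As 12 windows were searched, a single such match is not remarkable. Plin2 did not differ by 1.5-fold between genotypes in either state. Plin5 did in both, in fed liver as a bound that was lost with a floor at 64 units. A link between the matches and the genotype differences was not tested.

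The sequence around the matches of Plin2 and Plin5 is given for the part of the window that lies before the outermost annotated start of the gene, read 5′ to 3′ on the gene's strand, with the AGGTCA or repeat match in capitals. The Plin2 stretch is chr4:86670218-86670309 (minus strand, GRCm38.p6) and the Plin5 stretch is chr17:56117607-56117798 (minus strand, GRCm38.p6).
Plin2: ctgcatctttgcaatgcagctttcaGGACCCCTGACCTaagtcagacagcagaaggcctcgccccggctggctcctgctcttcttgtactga
Plin5: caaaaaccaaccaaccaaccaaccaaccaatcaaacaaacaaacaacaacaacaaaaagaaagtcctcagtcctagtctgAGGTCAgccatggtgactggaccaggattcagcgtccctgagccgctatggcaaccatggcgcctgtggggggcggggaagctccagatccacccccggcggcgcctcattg
On the gene's strand the Plin2 match reads as the reverse complement of the repeat. A match in these letters is a description of the sequence and does not show binding, and sites outside these windows were not searched.

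Other genes of neutral lipid storage and hydrolysis were read as a list of 33. A probe set of their own was used for 26, of which 19 were measured. Lipe, the hormone-sensitive lipase gene, Pnpla3, Mogat1, Mogat2, Fitm1, Hsd17b13 and Cav1 were at the floor on all arrays. The fasted null pool was lower past the threshold for 5 of the 19 (background 13.6%) and higher for 1 (background 8.58%), with a median of -0.37. Abhd6, a monoacylglycerol hydrolase gene, read under the floor at 14.6 units in fasted null and 71.5 units in fasted wild-type liver, at least 4.47-fold lower. Hsd17b11, which encodes a droplet-associated dehydrogenase, read 1013 and 4301 units, 4.24-fold lower in the null pool. It was also the 1 gene of this list past the threshold in fed liver, at 1.97-fold lower (1102 units in null and 2173 units in wild-type liver).

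The remaining differences of that list in fasted liver were smaller. The phospholipase gene Ddhd2 was 2.85-fold lower (17.2 units in null and 49.2 units in wild-type liver), Ldah, which encodes a droplet-associated hydrolase, 2.31-fold lower (20.2 and 46.8 units), and the seipin gene Bscl2 1.51-fold lower (169 and 255 units). Ddhd2 and Ldah were close to the floor in the null pool. Bscl2 passed the threshold by less than the 0.15 by which centring on bright probe sets shifted this comparison, so its call depends on the scaling. Hilpda, an inhibitor of Pnpla2, was at least 1.61-fold higher (25.7 units in null and under the floor at 11.9 units in wild-type liver). It was measured only through the fasted null pool, so its place as the 1 higher gene follows from the floor. Fasting was accompanied by lower values of 5 (background 18%) and higher values of 2 (background 12.4%, Hilpda among them) of the 19 genes in null liver, and by lower values of 3 (background 8.29%) and higher values of 5 (background 8.2%) in wild-type liver. Dgat1, which encodes an enzyme of the last step of triglyceride synthesis, was higher in the fasted pool of both genotypes, by 2.15-fold in null and 2.50-fold in wild-type liver, and Lpl and Ldah were lower in the fasted pool of both.

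**Figure D5:**
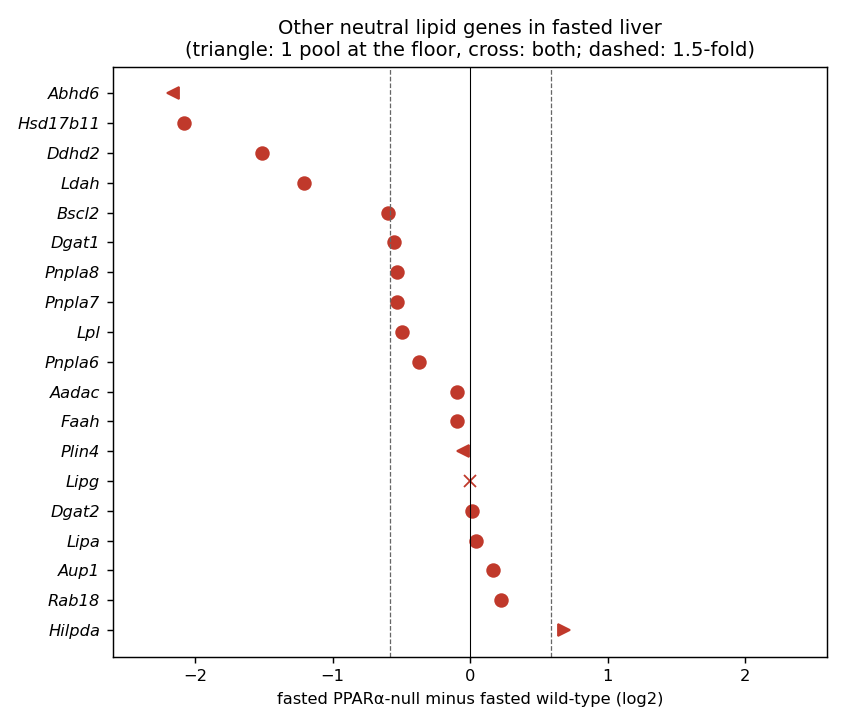
Fasted null minus fasted wild-type log2 difference of the 19 measured genes of the wider list, sorted, with dashed lines at 1.5-fold (triangles where 1 pool was at the floor, a cross where both were). Abhd6 (-2.16) and Hsd17b11 (-2.09) lie farthest to the left, and Hilpda (0.69) is the 1 gene beyond the right line.

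For the genes with a range of at least 1 on the log2 scale, the genes with the most similar profile over the 4 arrays were looked up among 2895 other genes that reached log2 of 7 on their brightest array, by the root mean square distance of the centred log2 values. The closest to Plin2 were Gpt2 (0.06) and Gde1 (0.08), to Mgll Adprm (0.05) and Ephx2 (0.08), and to Cidec Ncoa4 (0.09) and Bnip3 (0.10). Those of G0s2 were Fahd1 (0.10) and Luc7l3 (0.11), and those of Pnpla2 were Slco1a4 (0.24) and Igfbp1 (0.26). Plin5 had no close match, the nearest being Cyp2c39 (0.44) and Pex11a (0.59). Both fed values of Cidec and the fed null value of Plin5 were raised to the floor, so the distances of these genes depend on it. Cyp2c39 read 40.8 and 36.5 units in fasted and fed null liver and 548 and 42.6 units in fasted and fed wild-type liver. A likeness over 4 arrays is a description, and many genes share such simple profiles.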

How the data were processed

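The deposited intensities are GCRMA expression values, not logarithms. The submitters' processing notes name GCRMA 2.20, which removes background, equalizes array distributions by quantiles and combines the probes of a set. The arrays normalized together are not given in the sources used here, and no scanner files were used. Values were converted to log2. Of 22690 probe sets, 64 are controls and were left out of gene values. Names came from the platform annotation, using only probe sets with 1 symbol, and the symbols of all 10 genes matched the RefSeq table of GRCm38.p6.

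A gene was represented by its brightest probe set (mean log2 over the 4 arrays), floored at log2 of 4 (16 units). A fold with 1 pool at the floor is written as at least. Differences are log2, PPARα-null minus wild-type or fasted minus fed, counted at 1.5-fold, the threshold of the study's methods for pooled arrays, with the share of all measured genes as background. No test was run. All 10 genes are named whatever their values, with up to 6 genes of the wider list by size of difference in fasted liver and those at the floor throughout. Dgat1, Lpl and the single marker genes given with values were chosen after their values were seen. The members and lists were chosen with earlier results of these data known. The counting was tested on simulated data. Python 3.11.15, numpy 2.4.6, pandas 2.3.3 and statsmodels 0.14.6 were used. The number of mice per pool is that of the series' design text, and another source allows fewer in some pools. Alternatives were another threshold, floor, filter, scaling or choice of probe set.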

Additional observations from a re-analysis of the deposited data

Results flagged for a closer look

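Plin3 and Cideb had fasting differences of opposite sign in the 2 genotypes, each on 1 pooled array per group, and the difference was not tested. For Plin3 the response of null minus that of wild-type liver was 1.02 on the log2 scale, with 0.99 in null and -0.03 in wild-type liver. The wild-type value is smaller in size than the SD between probe sets of a gene (0.24), so Plin3 was level there and the sign is not settled. For Cideb it was -0.41, with -0.01 in null and 0.40 in wild-type liver, and neither response passed 1.5-fold. The null response of Cideb turned positive under quantile normalization, centring on bright probe sets and lowess, so its opposite sign is not kept.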

How the results depend on the processing

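At a 2-fold threshold the count of higher genes in fasted null against fasted wild-type liver was 0 (Plin3 at 0.99, background 3.4%). In the difference of responses it was 1 (background 3.48%). With a floor at 64 units fed null against fed wild-type liver had 0 lower genes (background 2.42%). Fasted against fed null liver then had 3 higher genes (background 14.3%) with a median of 0.083. That median was 0.58 with no floor, which admits Cidea, and 0.58 with a filter at 64 units, which removes Cidec. Using probe sets without suffix, Pnpla2 and Mgll were at the floor. Fasted against fed wild-type liver then had 3 higher genes (background 8.5%) with a median of 0.40. The 3 lower genes of fasted null liver were counted under all 9 alternatives except that Mgll was not measured without suffixed probe sets. The background of lower genes in that comparison ranged from 6.22% to 19.3% over these alternatives. Under quantile normalization, centring and lowess, the members kept the sign of their main value in the 2 genotype comparisons and in wild-type fasting, with the exception of Cideb in fasted liver under centring. The depth of an array is its signal over background, and Cidec and the null values of Plin5 are limited by it. No paired analysis was possible because each group has 1 array.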
